A study of Mus musculus with 10 samples.

Results

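The receptors for colony-stimulating factors and related growth factors were followed at the RNA level in splenic Ly6Chigh monocytes of mice. They comprised 7 genes, Csf1r, Csf2ra, Csf2rb, Csf2rb2, Csf3r, Il3ra and Flt3, chosen by gene symbol among the 24421 symbols that the tables of all 10 libraries shared. Of these symbols 12938 reached 1 TPM (transcripts per 1e+06 transcripts) in at least 3 libraries and were tested, all 7 receptor genes among them. The study asked what part regulatory T cells (Tregs) have in myelopoiesis in the spleen after myocardial infarction (MI). There were 3 groups of male mice aged 8 to 10 weeks, all operated on and taken on day 5: wild-type C57BL/6 mice (WT) after sham thoracotomy (n = 3, replicates 1, 2 and 3), WT mice whose left anterior descending coronary artery was tied off permanently (n = 3, replicates 2, 3 and 4), and Foxp3DTR mice after the same ligation (n = 4, replicates 1 to 4). In Foxp3DTR mice the Foxp3 promoter drives the human diphtheria toxin receptor, so that toxin kills Tregs. Toxin was given at 500 ng intraperitoneally on days 2 and 1 before surgery and at 250 ng on day 2 after it. The labels do not name the mice that received toxin, while the study's text sets Foxp3DTR mice after MI against WT mice that were given toxin too; whether the sham group was given toxin is not stated. No Foxp3DTR mice after sham surgery were analysed here, so that genotype and Treg loss cannot be told apart. Cells were sorted as CD11b+ Ly6G- F4/80+ Ly6Chigh CD115+. CD115 is the protein made by Csf1r, so the sort selected on the product of 1 of the 7 genes.

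Receptors for colony-stimulating factors and their relatives set how many myeloid cells are made and how long they live. Csf1r and Flt3 are receptor tyrosine kinases: Csf1r binds CSF-1 and IL-34 and keeps monocytes and macrophages alive, and Flt3 binds Flt3 ligand and is best known on progenitors and dendritic cells. Csf3r, the receptor for G-CSF, pairs with itself and is best known on neutrophils and their precursors. Csf2ra and Il3ra are the alpha chains that bind GM-CSF and IL-3. They signal through a beta chain that carries JAK2, either the common beta chain Csf2rb or, in mice, the IL-3-specific beta chain Csf2rb2.

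Libraries had an inferred depth of 3.13 to 8.40 M reads (M, 1e+06) of 50 bp, from 20 to 50 pg of RNA. This depth is what the deposited gene values imply, and the study states a higher number of reads sequenced. TPM was divided by a scaling factor per library (0.856 to 1.14), and levels are given as this scaled TPM, a measure per transcript length. The monocyte genes Ly6c2 and Ccr2 were detected in every library, at 1524 to 5028 and 922 to 1614 scaled TPM. WT sham replicate 2 had the lowest inferred depth. WT sham replicate 3 stood apart by genes of other cells, with summed T cell markers at 179.8 against 22.4 and 34.7 in the other sham libraries. Markers of other cells also differed between Foxp3DTR and WT libraries after MI, as sums that were higher and as single genes that were lower. Higher were several lists: summed neutrophil markers were 1142 to 2812 against 179 to 514 (12 of 12 markers with a positive difference), T cell markers 45.6 to 144 against 18.1 to 23.5 (9 of 9), NK cell markers 76.1 to 145 against 30.6 to 63.6 (7 of 7), plasma cell markers 29.5 to 104 against 4.58 to 14.0 (2 of 2 tested), and basophil and mast cell markers 8.34 to 31.4 against 0.828 to 5.46 (5 of 5 tested). The B cell gene Cd79b fell (log2 fold change -0.78, limma adjusted p = 0.0496). B cell markers did not fall as a list, with 2 positive and 1 negative difference among 3 tested, and their sums overlapped between the groups. Red pulp macrophage markers are given beside Csf1r. Each library is taken to be 1 animal, since the study counts its groups in animals, and p-values measure the spread between these libraries. In bulk RNA, fewer cells of a type and less RNA per cell cannot be told apart.

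In mm10, the build of the deposited tables, Flt3 lies at chr5:147330742-147400489 (minus strand), Csf2ra at chr19:61224402-61228418 (minus), Csf3r at chr4:126024659-126044975 (plus) and Il3ra at chr14:14346495-14355490 (plus). The 7 receptor genes spanned a wide range of levels. Csf1r was the most abundant, with a median of 649.7 scaled TPM over the 10 libraries, above 98.8% of tested genes. Csf2ra followed at 341 and Csf3r at 169, then the beta chains Csf2rb at 78.3 and Csf2rb2 at 29.6, and Flt3 at 23.8 and Il3ra at 19.0, near the middle of all tested genes. Neighbours in this order were not all distinct. Csf1r exceeded Csf2ra in 9 of 10 libraries, the exception being WT sham replicate 2. Csf2ra exceeded Csf3r, Csf3r exceeded Csf2rb and Csf2rb exceeded Csf2rb2 in 10 of 10. The order of the lowest genes was not fixed, since Csf2rb2 exceeded Flt3 in 6 and Flt3 exceeded Il3ra in 5 of 10 libraries. Flt3 varied most, with a highest library 13.7 times its lowest, and Csf2rb least, at 1.302 times. The others lay between 1.61 and 3.51 times.

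**Figure D1:**
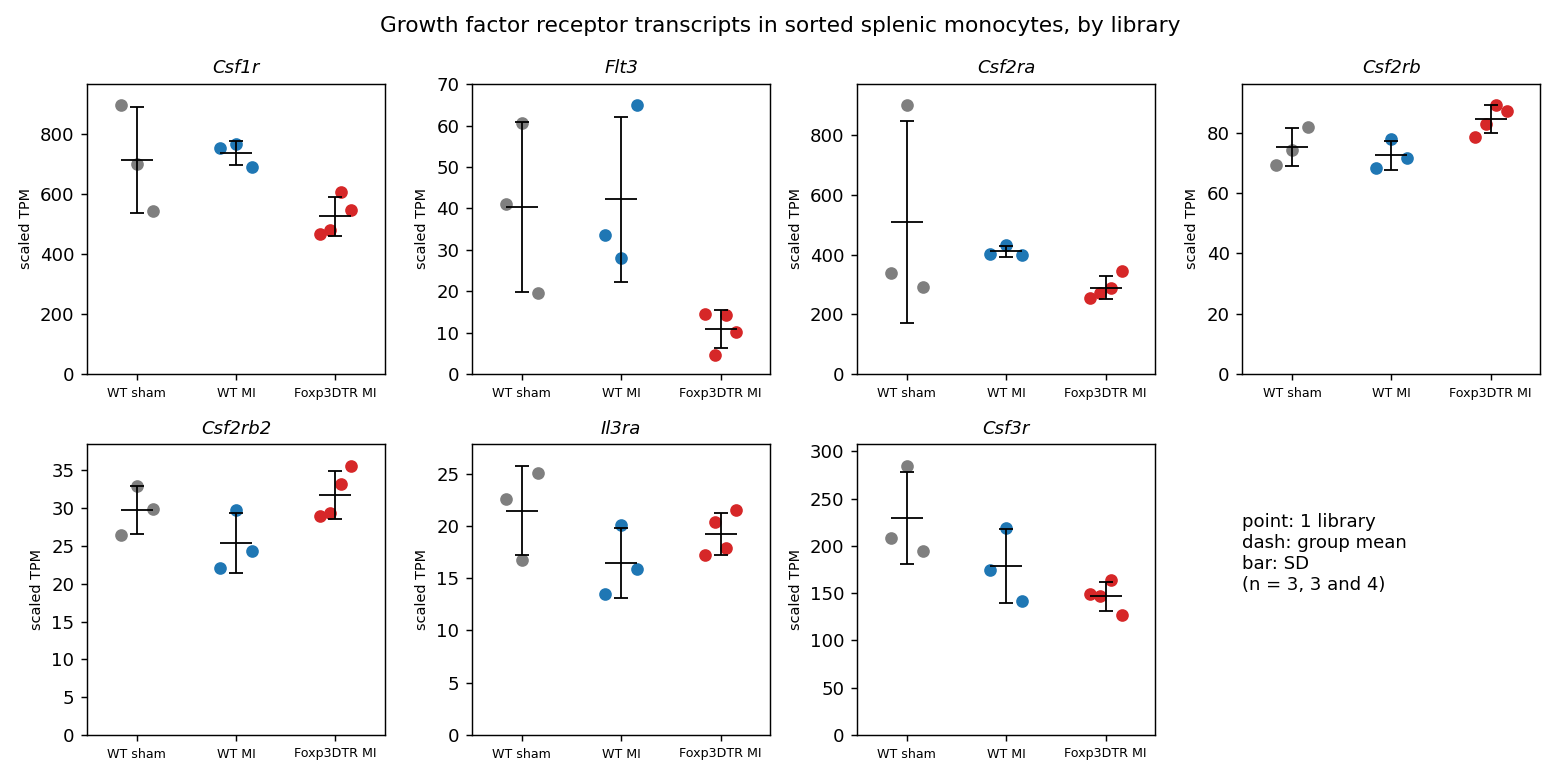
Scaled TPM of the 7 receptor genes (vertical axes, each from 0) in each library of the 3 groups (horizontal axes); points are libraries, dashes group means and bars SD. The 4 Foxp3DTR libraries sit below all 3 WT MI libraries for Csf1r, Flt3 and Csf2ra, above them for Csf2rb, and overlap them for Csf2rb2, Il3ra and Csf3r.

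Depletion of Tregs was examined by comparing Foxp3DTR with WT mice after MI. The receptors did not move as 1 group: 4 differences were negative (Flt3, Csf2ra, Csf1r and Csf3r) and 3 positive (Csf2rb2, Il3ra and Csf2rb), with a median log2 fold change of -0.27 beside 0.00080 for all tested genes. No receptor gene passed an adjusted p of 0.05 (limma over all tested genes with Benjamini-Hochberg adjustment), against 145 of 12938 genes (1.12%). At an unadjusted p under 0.05 there were 4 of 7, against 17.7% of all genes. The groups did not overlap in 4 of 7, against 19% of all genes, with 3 lower (9.02% of all genes) and 1 higher (9.97%).

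Flt3 showed the lowest value of the 7 in this comparison. Its level was 33.6, 27.9 and 64.9 scaled TPM in WT MI replicates 2, 3 and 4, and 14.4, 4.73, 14.3 and 10.2 in Foxp3DTR replicates 1 to 4. All 4 Foxp3DTR libraries were below all WT MI libraries, and replicate 2 was the lowest of the 10. The means were 42.2 ± 19.9 (SD, n = 3) and 10.9 ± 4.57 (SD, n = 4), so that Foxp3DTR libraries held 25.9% of the WT level, but the difference missed the threshold. The log2 fold change was -1.86 ± 0.45 (SE, 95% interval -2.85 to -0.88, limma unadjusted p = 0.00171, adjusted p = 0.0722), and 0.162% of tested genes had a value at least as low. The call depended on the fit: limma gave an adjusted p of 0.0385 with only the 2 groups compared, 0.0464 without WT sham replicate 2 and 0.0325 without WT sham replicate 3, and up to 0.210 without WT MI replicate 4.

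Other splenic cells carry Flt3, and their markers were measured in the same libraries. The summed level of 6 conventional dendritic cell markers was 73.9 to 91.3 in WT MI and 71.8 to 80.0 in Foxp3DTR libraries, with 3 of 6 differences positive and 3 negative. Among them Cd209a, a marker of monocyte-related dendritic cells, was 12.3 ± 8.88 (SD, n = 3) in WT MI and 3.64 ± 2.16 (SD, n = 4) in Foxp3DTR libraries (log2 fold change -1.43, limma adjusted p = 0.224). Plasmacytoid dendritic cell markers summed to 16.0 to 25.2 and 17.3 to 22.8, and stem and progenitor cell markers to 9.30 to 11.002 and 10.1 to 13.6. The 3 sums overlapped between the groups, but 1 gene each made up much of them: Snx22 was 46.7% to 89.5% of the conventional dendritic cell sum over the 10 libraries, Smim5 41.7% to 79.8% of the plasmacytoid and Meis1 49.5% to 85.0% of the progenitor sum. Without Snx22 the other 5 markers of conventional dendritic cells summed to 9.52 to 28.3 in WT MI and 7.58 to 12.7 in Foxp3DTR libraries, an overlap. Without Smim5 the plasmacytoid markers were higher in every Foxp3DTR library, at 7.38 to 10.1 against 3.24 to 7.19, and without Meis1 so were the progenitor markers, at 2.57 to 5.10 against 1.40 to 2.36. These sums were added after the values were seen. No marker of conventional dendritic cells was at 0 in a whole group, whereas Cox6a2 and Pacsin1 of the plasmacytoid list and Hlf of the progenitor list were at 0 in all WT MI libraries. The part of these cells in the Flt3 difference was not tested.

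**Figure D2:**
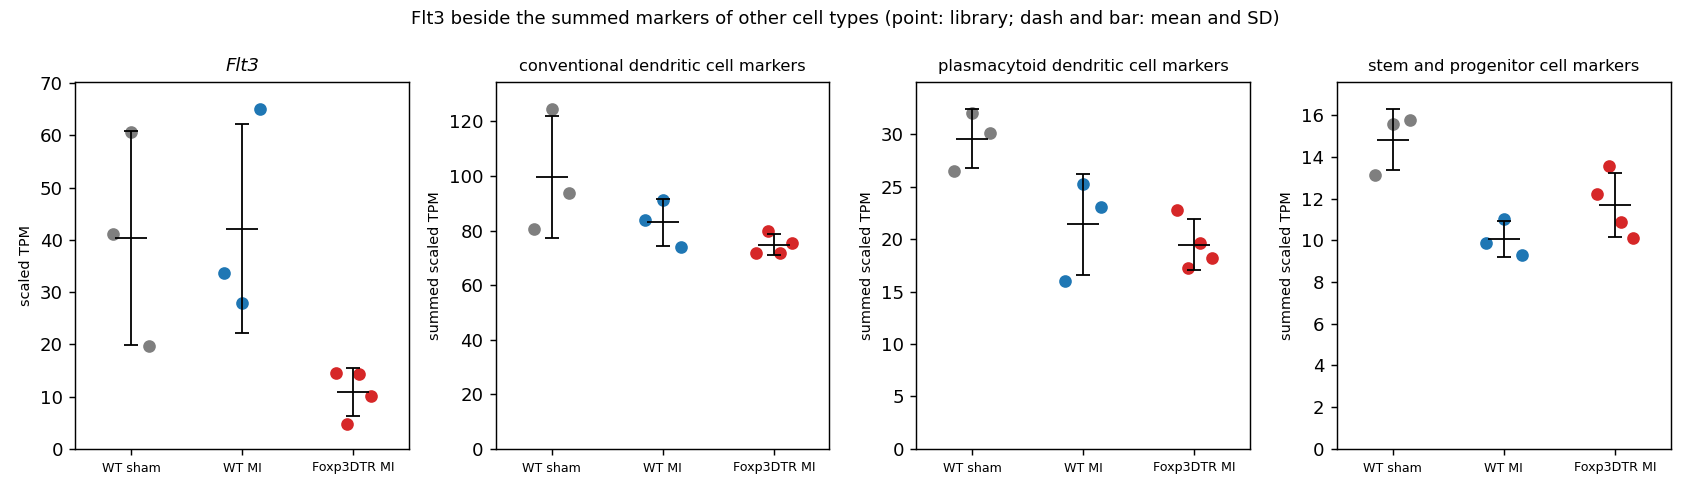
Scaled TPM of Flt3 and summed scaled TPM of the markers of conventional dendritic cells, plasmacytoid dendritic cells and stem and progenitor cells (vertical axes, from 0) by group; points are libraries, dashes means and bars SD. Flt3 lies at 4.73 to 14.4 in Foxp3DTR libraries and at 27.9 to 64.9 in WT MI libraries; conventional dendritic cell markers, whose sum is mostly Snx22 there, lie at 71.8 to 80.0 and 73.9 to 91.3.

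The region before the Flt3 start is shown because Flt3 had the largest difference. It is the RefSeq sequence (GRCm38.p6) of the 250 bases upstream of the gene, chr5:147400490-147400739, minus strand. It was searched on both strands for a GAS element (TTCNNNGAA, bound by STAT factors), an ISRE core (GAAANNGAA, bound by interferon regulatory factors), a PU.1 core (GAGGAA) and a C/EBP element (TTGCNNAA), and these letters were not in this window.
Flt3: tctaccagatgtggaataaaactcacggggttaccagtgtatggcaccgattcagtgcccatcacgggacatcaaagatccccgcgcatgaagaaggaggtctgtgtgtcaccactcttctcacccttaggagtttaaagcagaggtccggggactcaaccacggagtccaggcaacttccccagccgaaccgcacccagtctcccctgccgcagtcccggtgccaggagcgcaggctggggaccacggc

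Csf1r, whose protein was part of the sort, was lower in each Foxp3DTR library than in any WT MI library. It measured 754, 766 and 691 scaled TPM in WT MI replicates 2, 3 and 4, and 466.02, 481, 609 and 548 in Foxp3DTR replicates 1 to 4. The means were 737 ± 40.4 (SD, n = 3) and 526 ± 65.7 (SD, n = 4), or 71.4% of the WT level. The log2 fold change of -0.49 ± 0.17 (SE, 95% interval -0.87 to -0.12) gave a limma unadjusted p of 0.0152 and an adjusted p of 0.175. On the deposited TPM, without the scaling, the groups overlapped (591 to 726 in WT MI, 519 to 657 in Foxp3DTR) and the log2 fold change was -0.25. Macrophages carry Csf1r too. The summed level of 4 red pulp macrophage markers was 28.0 to 37.2 in WT MI and 10.9 to 30.8 in Foxp3DTR libraries, an overlap, with 2 positive and 2 negative differences. Among them Spic, the transcription factor that defines these cells, was 15.6 to 31.3 in WT MI and 5.14 to 14.5 in Foxp3DTR libraries (log2 fold change -1.42, limma adjusted p = 0.0685). The part of macrophage RNA in the Csf1r difference was not tested. Of the 5776 sequences of 50 bases in its GENCODE M21 transcripts, 824 (14.3%) also occurred in those of Hmgxb3, and reads of these could be assigned to either gene.

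Csf2ra, the GM-CSF-binding chain, had 403, 432 and 398 scaled TPM in WT MI replicates 2, 3 and 4 and 256, 271, 287 and 345 in Foxp3DTR replicates 1 to 4. Again the groups did not overlap, on the scaled and on the deposited values. The means were 411 ± 18.4 (SD, n = 3) and 289.6 ± 38.7 (SD, n = 4), a level of 70.4%. The log2 fold change was -0.51 ± 0.32 (SE, 95% interval -1.21 to 0.19, limma adjusted p = 0.427). The fit shares its estimate of the spread with the sham group, in which Csf2ra was 338, 900.0 and 292 in replicates 1, 2 and 3. Without WT sham replicate 2 the limma adjusted p was 0.0490, with only the 2 groups compared it was 0.0475, and the log2 fold change stayed at -0.51 in both. None of its 2986 transcript sequences of 50 bases was shared with another gene.

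The beta chains and Il3ra had positive differences. Csf2rb, the common beta chain, was 68.4, 77.9 and 71.6 scaled TPM in WT MI replicates 2, 3 and 4 and 78.7, 83.0, 89.1 and 87.3 in Foxp3DTR replicates 1 to 4. All Foxp3DTR libraries were higher, by a narrow margin. Its means were 72.6 ± 4.80 (SD, n = 3) and 84.5 ± 4.67 (SD, n = 4), with a log2 fold change of 0.22 ± 0.094 (SE, 95% interval 0.0084 to 0.42, limma unadjusted p = 0.0428, adjusted p = 0.263).

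Csf2rb2, the IL-3-specific beta chain, was 22.1, 29.8 and 24.3 in WT MI replicates 2, 3 and 4 and 29.0, 29.4, 33.2 and 35.6 in Foxp3DTR replicates 1 to 4. WT MI replicate 3 lay within the Foxp3DTR range, so the groups overlapped. The log2 fold change was 0.32 ± 0.13 (SE, 95% interval 0.019 to 0.62, limma unadjusted p = 0.0391, adjusted p = 0.252). Il3ra, the IL-3-binding chain, was 13.5, 20.1 and 15.9 in WT MI and 17.2, 20.4, 17.9 and 21.5 in Foxp3DTR libraries, again overlapping, with a log2 fold change of 0.22 ± 0.17 (SE, 95% interval -0.16 to 0.61, limma adjusted p = 0.536). On the deposited TPM both Csf2rb2 and Il3ra were higher in all Foxp3DTR libraries, and without scaling the log2 fold changes of Csf2rb, Csf2rb2 and Il3ra were 0.46, 0.55 and 0.45 while the median of all genes stood at 0.22. Basophils and mast cells carry Il3ra and the beta chains, and the higher sums of their markers in Foxp3DTR libraries are given above. Without Mcpt8 the sums overlapped, at 0.434 to 5.46 in WT MI and 5.24 to 17.9 in Foxp3DTR libraries. The part of these cells in the differences of Il3ra and the beta chains was not tested.

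Csf2rb and Csf2rb2 are near copies of each other and both lie on chromosome 15 (mm10), Csf2rb at chr15:78325990-78351001 on the plus strand and Csf2rb2 at chr15:78282508-78305721 on the minus strand. Their coding sequences, of 2688 and 2634 bases, were identical at 2504 of 2626 aligned bases (95.4%), with an identical run of up to 242 bases, and 892 sequences of 50 bases were common to both. That is 12.3% of Csf2rb and 18.9% of Csf2rb2 once the few shared with other genes are added, so the levels of the 2 genes are uncertain singly. The stretch of 90 coding bases where they differ most, at 16 bases, is shown because reads over it can tell them apart. It lies in exon 4 of both, at chr15:78338897-78338986 (plus strand) for Csf2rb and chr15:78294345-78294434 (minus strand) for Csf2rb2, and capitals mark the differing bases.
Csf2rb: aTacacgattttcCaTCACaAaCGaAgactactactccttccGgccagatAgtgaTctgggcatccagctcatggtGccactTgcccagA
Csf2rb2: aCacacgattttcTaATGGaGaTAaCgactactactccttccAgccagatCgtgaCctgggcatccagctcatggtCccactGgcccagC

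Over the 10 libraries the levels of Csf2rb and Csf2rb2 had a Pearson r of 0.81 (0.75 once group means were removed), the highest among the 21 pairs of receptor genes. The levels come from the same libraries, and reads of the sequences common to both genes may have been shared between them. The share of Csf2rb2 relative to Csf2rb was 32.3%, 38.3% and 33.9% in WT MI replicates 2, 3 and 4 and 36.8%, 35.4%, 37.3% and 40.8% in Foxp3DTR replicates 1 to 4. These ranges overlapped, and the log2 ratio differed by 0.10 (exact permutation test, two-sided, p = 0.229, adjusted p = 0.392 over 12 comparisons).

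Csf3r overlapped between the groups while the summed neutrophil markers did not. It was 175, 219 and 142 scaled TPM in WT MI replicates 2, 3 and 4 and 149, 147, 164 and 127 in Foxp3DTR replicates 1 to 4, with means of 179 ± 38.8 (SD, n = 3) and 147 ± 15.1 (SD, n = 4). The log2 fold change was -0.27 ± 0.17 (SE, 95% interval -0.65 to 0.11, limma adjusted p = 0.447), and -0.11 without WT MI replicate 3 or -0.025 without scaling. In the same libraries the neutrophil granule and S100 genes S100a9, Camp and Ngp rose (log2 fold changes 4.12, 4.86 and 4.71; limma adjusted p = 0.0200, 0.0151 and 0.0244), the 3 of 12 neutrophil markers that passed the test. Retnlg was listed at 0 in all WT MI libraries and at 4.77 to 28.3 in Foxp3DTR libraries. Ly6G+ cells were gated out in the sort, and the part of neutrophil RNA in the Csf3r level was not tested. Of the 3676 sequences of 50 bases in the Csf3r transcripts, 395 (10.75%) also occurred in other genes, 325 of them in AC105061.2. Reads of these could be assigned to another gene.

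**Figure D3:**
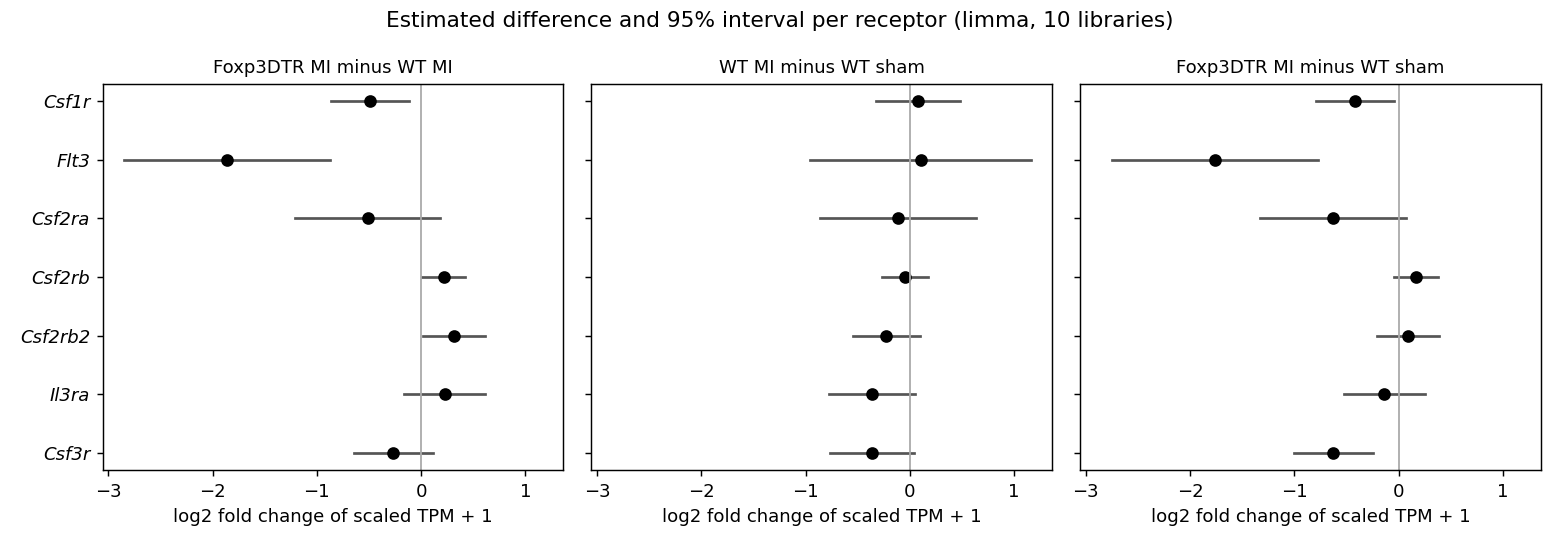
Log2 fold change of scaled TPM + 1 (horizontal axes) for each receptor gene in the 3 comparisons; points are limma estimates over 10 libraries and lines 95% intervals. In the comparison of Foxp3DTR with WT mice after MI the intervals of Csf1r and Flt3 lie below 0 and those of Csf2rb and Csf2rb2 above it, before any adjustment, while every interval of the comparison of WT MI with sham spans 0.

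The balance of the chains within a library, as a percentage, does not depend on the scaling between libraries. The log2 ratios that were tested had 1 added to each scaled level (the pseudocount), so the scaling enters them through it. Csf2rb amounted to 17.0%, 18.01% and 17.98% of Csf2ra in WT MI replicates 2, 3 and 4 and to 30.7%, 30.6%, 31.1% and 25.3% in Foxp3DTR replicates 1 to 4. The Foxp3DTR libraries were all higher, with a mean log2 difference of 0.73, at the smallest p that 4 against 3 libraries allow (exact permutation test, two-sided, p = 0.0571, adjusted p = 0.229 over 12 comparisons). In sham libraries 1, 2 and 3 the ratio was 20.6%, 8.26% and 28.1%, overlapping with both. Flt3 amounted to 4.46%, 3.65% and 9.40% of Csf1r in WT MI replicates 2, 3 and 4 and to 3.10%, 0.984%, 2.35% and 1.86% in Foxp3DTR replicates 1 to 4. These did not overlap either, with a log2 difference of -1.37 (exact permutation test, p = 0.0571, adjusted p = 0.229). With other pseudocounts this difference ran from -1.47 to -1.05. Csf3r relative to Csf1r was 20.6% to 28.6% and 23.1% to 32.0%, an overlap with a log2 difference of 0.23 (exact permutation test, p = 0.229, adjusted p = 0.392).

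**Figure D4:**
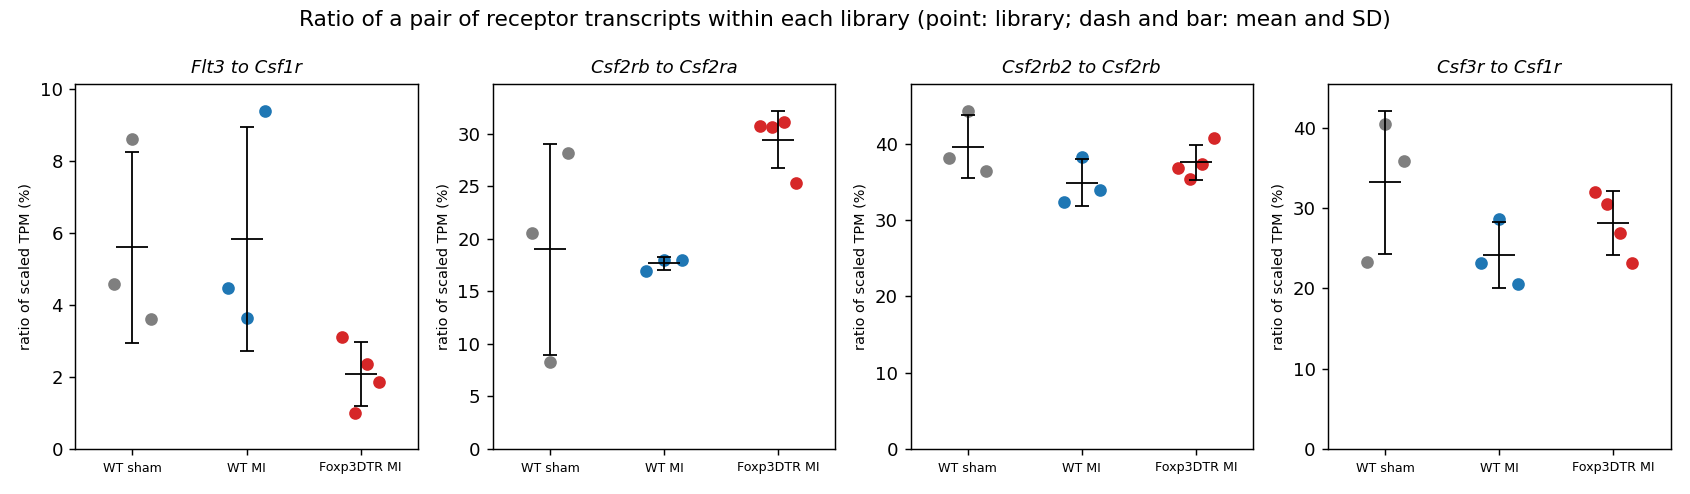
Ratio of a pair of receptor transcripts within each library, in percent of scaled TPM (vertical axes, from 0), by group; points are libraries, dashes means and bars SD. Csf2rb relative to Csf2ra is 25.3% to 31.1% in Foxp3DTR and 17.0% to 18.01% in WT MI libraries, and Flt3 relative to Csf1r is 0.984% to 3.10% and 3.65% to 9.40%.

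Promoters of Csf2ra and Csf2rb2 are shown because their estimated differences after MI had opposite signs, negative for Csf2ra and positive for Csf2rb2. Neither difference passed the adjusted threshold. They are the 250 bases upstream of each gene in RefSeq (GRCm38.p6), chr19:61228419-61228668 and chr15:78305722-78305971, both on the minus strand, with matches to the 4 motifs named above in capitals. Csf2ra held 2 PU.1 cores in a row, and Csf2rb2 a PU.1 core on the opposite strand and a GAS element. Of the 32851 windows of this length in the RefSeq table, 23.3% held a PU.1 core, 7.02% a GAS element, 9.56% a C/EBP element and 7.13% an ISRE core. Csf3r held 1 PU.1 core and Il3ra 1 C/EBP element. The table had no entry for Csf2rb, and that of Csf1r is not shown.
Csf2ra: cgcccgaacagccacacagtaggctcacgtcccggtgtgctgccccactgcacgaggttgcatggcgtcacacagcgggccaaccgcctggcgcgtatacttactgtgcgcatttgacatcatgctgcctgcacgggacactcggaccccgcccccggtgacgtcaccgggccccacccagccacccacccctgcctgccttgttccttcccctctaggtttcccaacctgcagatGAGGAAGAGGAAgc
Csf2rb2: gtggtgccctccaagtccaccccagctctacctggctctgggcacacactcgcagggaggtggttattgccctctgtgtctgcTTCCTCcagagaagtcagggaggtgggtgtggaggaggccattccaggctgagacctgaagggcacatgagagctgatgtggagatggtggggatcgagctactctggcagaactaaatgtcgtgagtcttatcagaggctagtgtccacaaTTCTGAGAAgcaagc

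The effect of MI alone was examined by comparing WT mice after MI with WT mice after sham surgery. No receptor gene passed the limma test, at an adjusted p of 0.960 or more, and none had non-overlapping groups, against 6.91% of all tested genes. Over all genes 0 passed the adjusted threshold (0%) and 600 (4.64%) had an unadjusted p under 0.05, with none of the 7 among them. Csf1r was 897, 702 and 543 scaled TPM in sham replicates 1, 2 and 3, around the WT MI values, and its log2 fold change was 0.07 (95% interval -0.33 to 0.48). Flt3 was 41.1, 60.5 and 19.6 in sham, with a mean of 40.4 ± 20.5 (SD, n = 3) against 42.2 ± 19.9 (SD, n = 3) after MI. Its log2 fold change of 0.10 had a wide interval, -0.95 to 1.16. Summed plasmacytoid dendritic cell markers were lower in WT MI than in sham libraries, at 16.0 to 25.2 against 26.5 to 32.0. Without Smim5 they overlapped, at 3.24 to 7.19 and 6.41 to 17.6. Stem and progenitor cell sums were lower too, at 9.30 to 11.002 against 13.1 to 15.7. Conventional dendritic cell sums overlapped, at 73.9 to 91.3 and 80.6 to 124.

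The remaining receptors were also close or uncertain between MI and sham surgery. Csf2rb was 69.5, 74.3 and 82.0 in sham (log2 fold change -0.05, 95% interval -0.27 to 0.17), and Csf2rb2 was 26.5, 32.9 and 29.9 (-0.23, -0.54 to 0.094). Csf3r was 209, 285 and 195 in sham (-0.36, -0.77 to 0.043), and Il3ra was 22.6, 16.8 and 25.1 (-0.36, -0.78 to 0.051). For Csf2ra the interval ran from -0.86 to 0.63 around -0.12. That value turned positive, to 0.39, without sham replicate 2. Csf1r and Flt3 likewise turned negative, to -0.11 and -0.33, without sham replicate 3, and Flt3 to -0.25 without WT MI replicate 4.

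Foxp3DTR mice after MI were also set against WT mice after sham surgery, which mixes genotype, Treg loss and surgery and shares its groups with the comparisons above. No receptor gene passed the adjusted threshold (70 of 12938 genes, 0.541%), 3 of 7 had an unadjusted p under 0.05 (18.6% of all genes), and 2 of 7, Flt3 and Csf3r, had non-overlapping groups (18.2% of all genes; 8.44% lower). Flt3 stood at 27.0% of the sham mean, with a log2 fold change of -1.76 ± 0.45 (SE, limma adjusted p = 0.103). Without sham replicate 3 it was -2.20 (adjusted p = 0.0258), and without sham replicate 2 -1.41 (adjusted p = 0.355). Here the summed dendritic cell markers were lower as well, and neither sum overlapped. The conventional sum was 80.6 to 124 in sham and 71.8 to 80.0 in Foxp3DTR libraries. The plasmacytoid sum was 26.5 to 32.0 and 17.3 to 22.8, and it was also lower in WT MI than in sham libraries, as given above. Without Snx22 the conventional markers were 18.8 to 66.3 and 7.58 to 12.7, and Cd209a gave a log2 fold change of -2.47 (limma adjusted p = 0.0853). Without Smim5 the plasmacytoid markers overlapped, at 6.41 to 17.6 in sham and 7.38 to 10.1 in Foxp3DTR libraries. Differences were negative for 4 of 6 conventional and 3 of 4 tested plasmacytoid markers. The part of these cells in the Flt3 difference from sham was not tested either. Csf3r stood at 63.9% of the sham mean, at 195 to 285 against 127 to 164, with a log2 fold change of -0.63 ± 0.17 (SE, 95% interval -1.01 to -0.25, limma unadjusted p = 0.00396, adjusted p = 0.114). Summed neutrophil markers overlapped between these groups, at 352 to 1327 and 1142 to 2812, and all 12 markers had a positive difference. Csf1r gave -0.42 (adjusted p = 0.226), beside red pulp macrophage markers of 32.6 to 46.8 in sham and 10.9 to 30.8 in Foxp3DTR libraries, and Csf2ra -0.63 (adjusted p = 0.315), the latter -0.12 without sham replicate 2. Spic made up 40.8% to 84.0% of the macrophage sum over the 10 libraries. Without Spic the other 3 markers overlapped, at 9.60 to 27.6 in sham and 5.46 to 16.3 in Foxp3DTR libraries. Csf2rb, Csf2rb2 and Il3ra gave 0.17, 0.09 and -0.14, at adjusted p of 0.371, 0.744 and 0.705.

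The signalling partners of these receptors were given by 85 genes in 7 lists, of which 75 were tested. Between Foxp3DTR and WT mice after MI, 4 of the 75 rose and 1 fell (limma, adjusted p under 0.05), with 37 positive and 38 negative differences and a median log2 fold change of -0.0062 beside 0.00080 for all genes. Jak2, the kinase bound to the beta chains and to Csf3r, rose from 83.0, 82.5 and 81.8 scaled TPM in WT MI replicates 2, 3 and 4 to 139, 142, 138 and 129 in Foxp3DTR replicates 1 to 4. Its groups were far apart, with a log2 fold change of 0.73 ± 0.083 (SE, limma adjusted p = 0.0151), and it was the only pathway gene past the threshold against sham as well (0.64, adjusted p = 0.0209). Stat5a and Stat5b, the STATs that GM-CSF and IL-3 act through, gave -0.05 (adjusted p = 0.816) and -0.24 (adjusted p = 0.293).

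Among 16 negative regulators 2 rose. Socs1, an inhibitor of JAK kinases, was 5.37, 6.88 and 5.48 scaled TPM in WT MI and 30.5, 47.1, 60.6 and 47.2 in Foxp3DTR libraries (log2 fold change 2.74 ± 0.37, SE, limma adjusted p = 0.0153). Cish, a feedback inhibitor best known downstream of STAT5, was low in WT MI, at 0.170, 0.752 and 1.03, and reached 4.52, 10.4, 7.24 and 6.29 in Foxp3DTR libraries (2.29 ± 0.42, SE, limma adjusted p = 0.0413). Socs3 was 99.0 ± 48.1 (SD, n = 3) and 98.6 ± 38.03 (SD, n = 4), and Sh2b3, an adaptor that dampens cytokine receptors, gave -0.86 (adjusted p = 0.131). In a list of 10 genes tied to the response to these cytokines, Bcl6, a transcriptional repressor, fell from 148 ± 30.7 (SD, n = 3) to 79.5 ± 5.76 (SD, n = 4), a log2 fold change of -0.87 ± 0.17 (SE, limma adjusted p = 0.0473). None of 16 adaptors and effectors or 14 transcription factors passed. The lowest p in these lists went to Pik3r1 (0.23, adjusted p = 0.211) and Tyrobp (-0.56, adjusted p = 0.214), and to Ikzf1 (1.36, adjusted p = 0.125). Ikzf1 was 254 to 284 in Foxp3DTR replicates 1 to 3, but 70.9 in replicate 4, within the WT MI range of 69.0 to 82.1. Its sham values, 202 to 220, also lay above all WT MI values (log2 fold change of MI against sham -1.48, limma adjusted p = 0.960). These calls were sensitive to single libraries: without WT MI replicate 2 limma called 0 of all tested genes (2424 had an unadjusted p under 0.05), and Jak2, Socs1, Cish and Bcl6 then had adjusted p of 0.0646 to 0.0943.

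**Figure D5:**
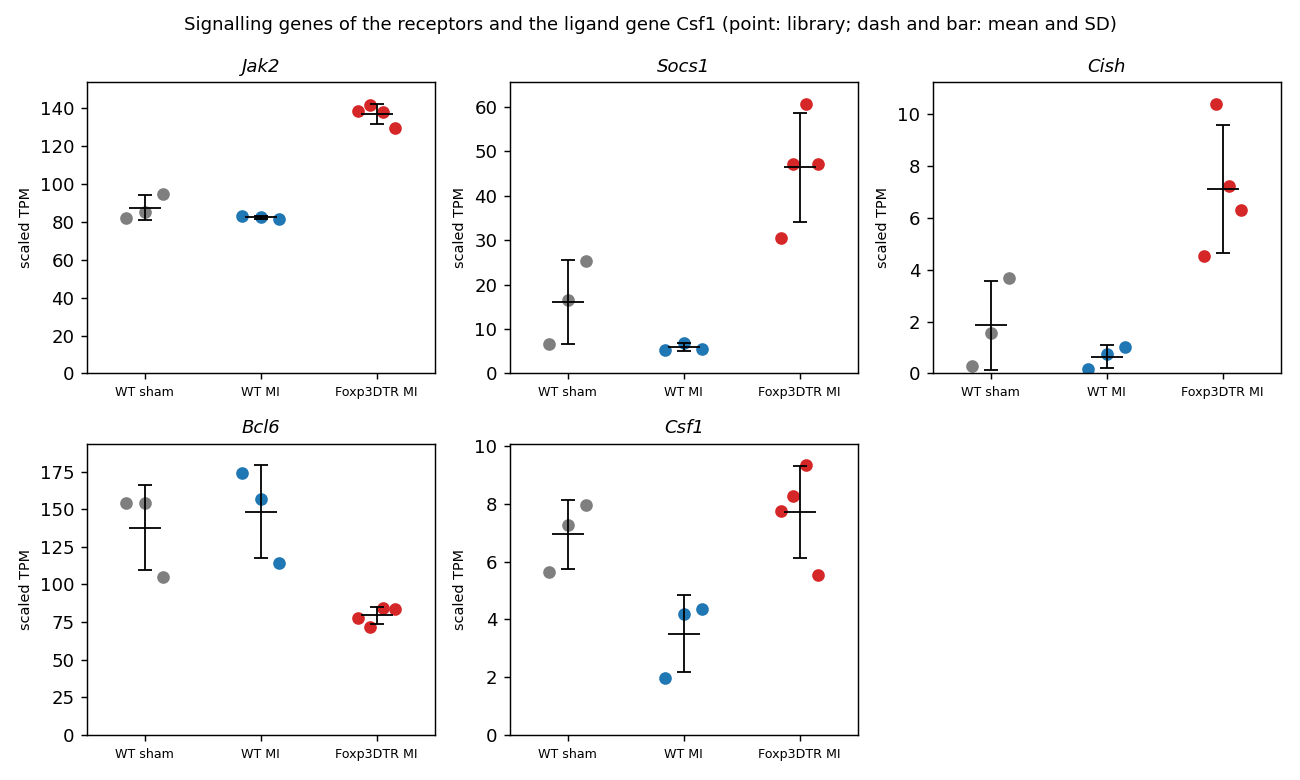
Scaled TPM (vertical axes, from 0) of Jak2, Socs1, Cish and Bcl6, pathway genes that passed the test between Foxp3DTR and WT mice after MI, and of the ligand gene Csf1, by group; points are libraries, dashes means and bars SD. Jak2 lies at 129 to 142 in Foxp3DTR libraries and at 81.8 to 83.0 in WT MI libraries, and Bcl6 is lower in every Foxp3DTR library.

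Of the ligands, Csf1 and Flt3l passed the filter in these monocytes. Csf1, the ligand of Csf1r, was 1.99, 4.18 and 4.36 scaled TPM in WT MI replicates 2, 3 and 4 and 7.74, 8.27, 9.33 and 5.52 in Foxp3DTR replicates 1 to 4, without overlap (log2 fold change 0.98 ± 0.25, SE, limma adjusted p = 0.0880). Its sham values, 5.63, 7.27 and 7.95, also lay above all WT MI values (log2 fold change of MI against sham -0.86, adjusted p = 0.960). Flt3l, the ligand of Flt3, overlapped between the groups, at 19.8 to 25.3 and 12.5 to 26.7 (-0.26, adjusted p = 0.630). The genes of GM-CSF, G-CSF, IL-34 and IL-5 stayed below the filter, with no library above 1.37, and Il3 was listed at 0 in all 10 libraries. Related receptors were low: Kit was 0.482 to 0.656 in WT MI and 1.07 to 2.68 in Foxp3DTR libraries (0.82, adjusted p = 0.266), Pdgfrb gave -0.36 (adjusted p = 0.594), and Il5ra, Epor and Pdgfra were below the filter.

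The genes whose levels ran most like those of each receptor were found by Pearson r of log2 levels over the 10 libraries, among 10174 genes with a mean of at least 5 TPM. Flt3 was most like Lsr (r = 0.98), Pacs2 (0.96) and Abca6 (0.96). Of these Abca6 gave a log2 fold change of -1.72 between Foxp3DTR and WT mice after MI (limma adjusted p = 0.0575). Csf1r was most like Tnfrsf1b (0.97), a TNF receptor, with Calhm2 (0.97) and Pip4k2a (0.97). Csf2rb ran with Irf1 (0.97), an interferon-induced transcription factor, Slc15a3 (0.95) and Psme2b (0.95). Irf1 itself gave 1.497 (limma adjusted p = 0.0724). Csf2ra was most like Hagh, Tgif1 and Ttc17 (all 0.97). Csf3r was most like Ctbp2 (0.98), Peg13 (0.97) and Klc1 (0.96), Csf2rb2 like Gramd3 (0.97), Tagap1 (0.93) and Kctd5 (0.93), and Il3ra like Tmco6 (0.92), Fuom (0.90) and Tab3 (0.86). Between receptors, Csf1r and Flt3 had an r of 0.77 and Csf2rb and Flt3 one of -0.76, which came to 0.37 and -0.36 once group means were removed. All points share 10 libraries and 3 groups, and the values are a description.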

How the data were processed

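RNA of sorted splenic Ly6Chigh monocytes was sequenced in 10 libraries, grouped by their labels. Per the submitters' processing notes the reads went through CASAVA 1.4, cutadapt 1.1, STAR 2.5 (build mm10) and StringTie 1.3.0, with options and strand setting not given in the sources used here. For each library the authors deposited a table with coverage (a signal, mean read depth over a gene), FPKM (fragments per kilobase per 1e+06 fragments) and TPM, which sums to 1e+06 per library. No counts are given, so DESeq2, the test of the study, was not used. Read depth was inferred from deposited coverage divided by FPKM, constant within 1% for 84.9% to 85.2% of entries (median 6.64 M reads); single values carry no counting interval.

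TPM was summed per symbol and divided in each library by its median ratio to the geometric mean over libraries, which sets changes relative to the median gene. Genes at 1 TPM in at least 3 libraries were kept. Group means of log2(scaled TPM + 1) over all libraries were fitted with limma 3.58.1 (R 4.3.3, variance trend, Benjamini-Hochberg adjustment), tested on simulated data; fold changes are on this scale, which understates those of low genes. Log2 ratios within libraries, with 1 added to each scaled level, were compared by two-sided exact permutation tests. Shared sequences were found among GENCODE M21 transcripts (GRCm38). The receptors and the gene lists were chosen with earlier results of these data known. Named were the 7 receptors, pathway genes past the threshold or with the lowest p of their list (up to 3), the 3 genes most like each receptor, and defining markers of lists that did not overlap; Stat5a, Stat5b, Socs3, Cd209a, Ly6c2, Ccr2 and genes below the filter were added after their values were seen. Some listed genes are not reported here. Alternatives were other scalings, pseudocounts and filters, FPKM, other limma settings, a replicate block and leaving out each library.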

Additional observations from a re-analysis of the deposited data

Results flagged for a closer look

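The log2 ratio of Csf2rb to Csf2ra had a sample far from the others in the Foxp3DTR group: replicate 4, at 25.3%, lay below replicates 1 to 3, at 30.6% to 31.1%, with a gap of 0.9292 of the group's range, past Dixon's 95% critical value for 4 samples. Of 11 values examined in this group 1 was past it, where chance flags about 1 in 20. Replicate 4 still lay above the WT MI libraries, at 17.0% to 18.01%.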

How the results depend on the processing

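Of 22 alternatives per comparison, the 154 values of the 7 receptors kept their direction and their side of the limma threshold in 149 (Foxp3DTR against WT mice after MI, 5 newly past it), 145 (WT MI against sham, 9 with the other sign) and 153 (Foxp3DTR against sham, 1 newly past it). Between Foxp3DTR and WT mice after MI, 2 receptors passed with only the 2 groups compared, and leaving out 1 library gave 0 to 2 (Flt3 without WT sham replicate 3, Flt3 and Csf2ra without WT sham replicate 2). Against sham it gave 0 to 1 (Flt3 without WT sham replicate 3). All genes passing between Foxp3DTR and WT mice after MI, 145, became 527 without scaling, 22 with no filter, 578 with only the 2 groups compared, 74 without the variance trend, 398 with array weights and 0 to 431 with 1 library left out (0 without WT MI replicate 2, 431 without WT sham replicate 2). Without scaling 488 of the 527 were higher, against 89 of 145. For WT MI against sham, 0 became 3 with only the 2 groups and 0 to 2 with 1 library left out. For Foxp3DTR against sham, 70 became 23 at a pseudocount of 0.1, 11 with no filter, 10 with only the 2 groups, 29 without the trend and 3 to 636 with 1 library left out (3 without WT sham replicate 1, 636 without WT sham replicate 3).

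Other signs appeared for log2 fold changes of WT MI against sham: Csf1r -0.11 without scaling and -0.071 with quantile normalization, Csf2ra 0.17 with array weights, and Flt3 -0.075 without scaling. With 1 library left out the ranges were -0.11 to 0.25 for Csf1r, -0.42 to 0.39 for Csf2ra, -0.10 to 0.013 for Csf2rb and -0.33 to 0.46 for Flt3, and for log2 ratios -0.37 to 0.38 (Flt3 to Csf1r) and -0.45 to 0.44 (Csf2rb to Csf2ra). Csf2rb2 to Csf2rb, Foxp3DTR against sham, ranged from -0.13 to 0.0065. The causes were not tested, and libraries of other depth or cell content are named in the results. The pathway genes Jak2, Socs1, Cish and Bcl6 kept their direction between Foxp3DTR and WT mice after MI in all 22 alternatives and stayed past the threshold in 20, 18, 11 and 11.

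With the replicate number as a block, 81, 0 and 16 genes passed in the 3 comparisons and no receptor did (Flt3 -1.95, limma adjusted p = 0.130, after MI). Deviations from the group means gave correlations of -0.19 to 0.19 for libraries of the same number and -0.20 to 0.18 for different numbers. With means over 3 or 4 libraries, this cannot settle whether the numbers pair the samples. TPM without counts, 3 to 4 libraries per group and picogram amounts of RNA limit what can be told apart.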
